A study of Homo sapiens with 6 samples.

Results

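The distal long arm of chromosome 3 was examined in ChIP-seq peak lists of 2 transcription factors, KLF5 and CEBPB, in 2 human bronchial epithelial lines. All deposited peaks on chromosome 3 whose midpoint lay beyond 150 Mb of the hg19 assembly were taken. They numbered 2597 of 74158 peaks. Of the 1510 Calu-3 KLF5 peaks 10.3% lay there, made up of 54 from the 50% of that list with the higher signal and 101 from the 50% with the lower. The other members were 26 of 3262 16HBE14o- KLF5 peaks and 2416 of 69386 Calu-3 CEBPB peaks. The stretch ran to 197.8 Mb, the last base covered by any list, and was 47.8 Mb long. Calu-3 comes from an adenocarcinoma of the lung. The 16HBE14o- cells are bronchial epithelium that was immortalised in culture. Per the labels, both were untreated and grown in DMEM with 10% fetal bovine serum. The 6 samples formed 3 groups of 2. KLF5 was precipitated from Calu-3 and from 16HBE14o- cells, and CEBPB from Calu-3 cells. A rabbit antibody precipitated KLF5 in replicate 1 of Calu-3, and the commercial antibody sc-398470 was used in Calu-3 replicate 2 and in both 16HBE14o- samples, so line and antibody cannot be fully told apart. CEBPB was precipitated with sc-7962.

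Each group had 1 deposited list, made from both of its samples per the series' design text. No spread between samples could be computed. The depth of sequencing is unknown, since no read counts stand in the lists. The stretch was chosen by its numbers of peaks in these same lists, so densities, and every comparison that rests on them, are descriptions with no test. Intervals are 95% intervals for counting error only, and peaks are not replicates of a condition. Signals are the authors' own and are ranked within 1 list, as a percentile with 100 for the highest peak.

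KLF5 is a zinc finger factor of the Krüppel-like family that binds GC-rich elements and is expressed in epithelia, where it takes part in proliferation and differentiation. CEBPB is a basic leucine zipper factor that acts in inflammatory and secretory gene programmes of the airway. The long arm of chromosome 3 is known for the squamous lineage factors SOX2 and TP63, for the kinase gene PIK3CA and for recurrent gains in carcinomas of the lung. It also carries HES1, a repressor induced by Notch signalling, the tight junction gene CLDN1 and the membrane mucin gene MUC4. All 18 airway epithelial genes listed for this work, all 20 genes of the known gain and all 9 transcription factor genes were found on chromosome 3 in RefSeq GRCh38.p14. The lists were drawn up for this stretch and share some genes, so this is a check of names and not a result. Along the chromosome the first list ran SIAH2, RARRES1, MECOM, PLD1, TNFSF10, SOX2, LAMP3, LIPH, ST6GAL1, BCL6, TPRG1, TP63, CLDN16, CLDN1, IL1RAP, HES1, MUC20 and MUC4. That assembly is not the one of the peak lists, no position was converted, and no peak was assigned to a gene.

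KLF5 peaks of Calu-3 stood at 3.24 per Mb in the distal arm, against 0.587 per Mb on the rest of chromosome 3 and 0.445 per Mb over the rest of the list. KLF5 peaks of 16HBE14o- stood at 0.544 per Mb in the distal arm, 0.580 per Mb on the rest of the chromosome and 1.06 per Mb over the rest of the list. Of the 87 16HBE14o- peaks on the rest of the chromosome, 43 lay between 85 and 90 Mb, and without that run of bins the density there was 0.303 per Mb. The highest 25% of the 16HBE14o- list was 1.46 times as dense in the arm as on the rest of the chromosome, from 7 against 15 peaks. For all 16HBE14o- peaks this ratio was 0.938, and for the lowest 25% it was 0.546. Against the rest of the list the highest 25% was 0.551 times as dense in the arm. CEBPB peaks of Calu-3 stood at 50.5 per Mb, against 33.6 and 22.0 per Mb. The distal arm thus held 10.3% of the Calu-3 KLF5 list (8.78 to 11.9), 0.797% of the 16HBE14o- KLF5 list (0.521 to 1.17) and 3.48% of the CEBPB list (3.35 to 3.62).

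The place of the step was estimated by maximum likelihood from counts in 100 kb bins of the long arm from 94 Mb. With 1 step, the Calu-3 KLF5 density changed at 148.8 Mb (148.1 to 149.5), with 3.24 peaks per Mb beyond it and 0.693 before it. That step was therefore 1.2 Mb short of the 150 Mb bound. For CEBPB a single step fell at 146.7 Mb (146.2 to 147.4), with 50.2 peaks per Mb beyond it and 32.2 before it. With 3 steps allowed, CEBPB had 25.9 peaks per Mb up to 111.4 Mb, 36.7 up to 154.0 Mb, 58.7 from there to 178.6 Mb and 41.9 from 178.6 Mb to the end. The steepest rise thus moved to 154.0 Mb and an earlier rise appeared at 111.4 Mb, so no single start of the CEBPB step can be given. With 2 steps, Calu-3 KLF5 also had an earlier change at 124.3 Mb, with 0.297 peaks per Mb before it and 1.18 between it and 148.8 Mb. With 3 steps that early change was not placed. The steps then lay at 148.8, 193.5 and 194.1 Mb, with 3.02 peaks per Mb up to 193.5 Mb, 35.0 from there to 194.1 Mb and 0.811 from 194.1 Mb to the end. The dense stretch of Calu-3 KLF5 thus ended at 194.1 Mb in that fit. In fits with up to 3 steps the 16HBE14o- list had none near 150 Mb. Its single step lay at 195.4 Mb (187.7 to 195.6), with 7 peaks at 2.92 per Mb beyond it and 0.444 per Mb before it. With 2 steps that place was not found, and the steps lay at 126.5 and 129.7 Mb, with 11 peaks at 3.44 per Mb between them. With 3 steps all of these places were found.

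**Figure D1:**
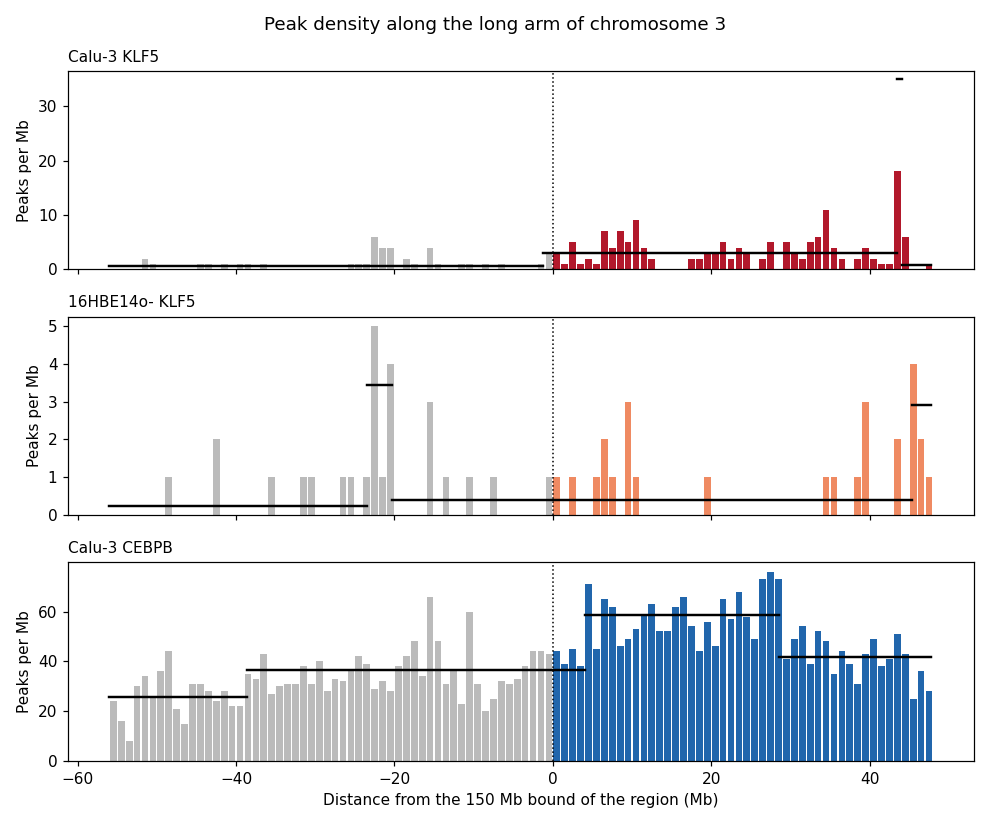
Peaks per Mb in bins of 1 Mb along the long arm of chromosome 3, for Calu-3 KLF5, 16HBE14o- KLF5 and Calu-3 CEBPB from top to bottom, against the distance from the 150 Mb bound in Mb. Coloured bars are the distal arm, grey bars the arm before it, and black lines the mean density of each stretch in the fit with 3 steps, in which CEBPB stood at 58.7 peaks per Mb from 154.0 to 178.6 Mb.

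Just inside the bound lay a Calu-3 KLF5 peak at 150345954 to 150346233 (signal 18.5, percentile 7.55), and just outside it one at 149650849 to 149651128 (signal 23.2, percentile 29.7). For 16HBE14o- KLF5 the nearest peaks were at 150443323 to 150443666 inside (percentile 29.2) and at 149470122 to 149470465 outside (percentile 56.4). For CEBPB they were at 150062927 to 150063265 inside (percentile 97.5) and at 149955067 to 149955191 outside (percentile 5.83). The closest to the bound was the outer CEBPB peak, with its midpoint 44.9 kb from it.

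In 48 bins of 1 Mb the Calu-3 KLF5 count ran from 0 to 18 with a median of 2, and 9 bins were empty. In 23 of the 48 the count was above 2, the 90th percentile of 3083 bins of the whole genome. CEBPB ran from 25 to 76 peaks per bin with a median of 49, and 36 of 48 bins were above 42, its 90th percentile over the genome. For 16HBE14o- KLF5 this held for 1 of 48 bins, and 32 were empty. Over the 47 complete bins the counts of KLF5 and CEBPB in Calu-3 were nearly unrelated, with a Spearman rho of 0.12, given as a description.

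The bins richest in Calu-3 KLF5 lay at 193 to 194 Mb with 18 peaks, at 184 to 185 Mb with 11, at 160 to 161 Mb with 9, and at 156 to 157 and 158 to 159 Mb with 7 each. They held 51, 48, 53, 65 and 46 CEBPB peaks in that order. The bins richest in CEBPB were others. They lay at 177 to 178 Mb with 76 peaks, at 176 to 177 and 178 to 179 Mb with 73 each, in the bin that starts at 154 Mb with 71 and at 173 to 174 Mb with 68. These 5 held 5, 2, 0, 2 and 4 Calu-3 KLF5 peaks and no 16HBE14o- peak.

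In 4 stretches of over 1.5 Mb no Calu-3 KLF5 peak was listed, and CEBPB density varied among them. The longest, at 162248732 to 167452562, covered 5.20 Mb and had 0 KLF5 peaks of either line, whereas it held 310 CEBPB peaks at 59.6 per Mb. Of those, 24 (7.74%) were in the highest 25% of the CEBPB list by signal, against 427 (17.7%) over the whole distal arm. At 177701634 to 179280684 another 1.58 Mb held 0 KLF5 peaks and 104 CEBPB peaks at 65.9 per Mb. At 186925346 to 188878403 a stretch of 1.95 Mb with 0 KLF5 peaks of either line had CEBPB at 36.4 per Mb, and 17 of its 71 CEBPB peaks (23.9%) were in the highest 25%. Between 194754534 and 197087073, chosen like the others for its 0 Calu-3 KLF5 peaks, lay 6 16HBE14o- peaks, and CEBPB stood at 32.2 per Mb.

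Most Calu-3 KLF5 peaks of the distal arm were weak for their list. Their median signal percentile was 29.1 (quartiles 8.74 and 66.2), against 48.05 (24.6 and 67.6) on the rest of chromosome 3 and 51.8 (27.5 and 75.3) over the rest of the list. In the lowest 25% of the list by signal lay 74 peaks of the arm (47.7%), against 303 of 1355 (22.4%) of the rest, and in the highest 25% lay 34 (21.9%) against 344 (25.4%). A q-value of 0.05 or less was given for 107 peaks of the arm (69.0%), against 1201 of 1355 of the rest (88.6%), the share in the whole list being 86.6%. Peaks of high signal were nonetheless denser there too. The density of the highest 25% was 6.29 times that over the rest of the list, and that of the lowest 25% was 15.5 times. The peaks of the highest 25% were not spread evenly, since 15 of the 34 lay from 190 Mb to the end. That block holds the densest bin, from 193 to 194 Mb, and the ratio without this bin was not computed.

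**Figure D2:**
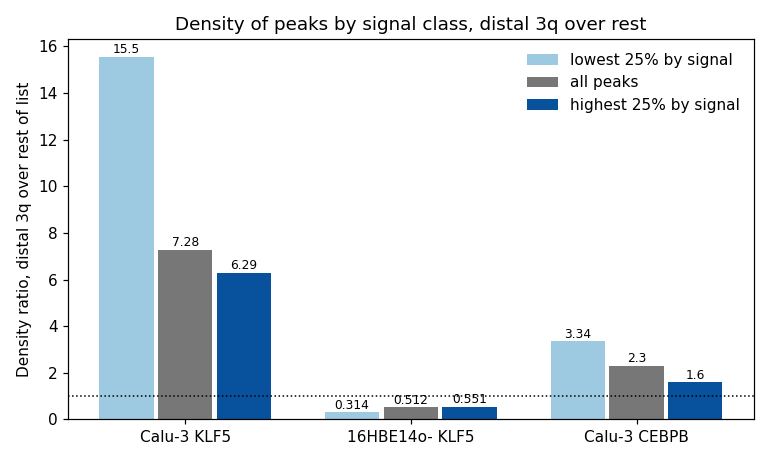
Ratio of peak density in the distal long arm of chromosome 3 over that in the rest of each list, for the lowest 25% by signal, all peaks and the highest 25% (bars from left to right in each list). The ratio for Calu-3 KLF5 was 15.5 in the lowest and 6.29 in the highest class, that for 16HBE14o- KLF5 was below 1 in all 3, and the dotted line marks 1.

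Some entries of low signal overlapped another entry. In the distal arm 22 Calu-3 KLF5 peaks (14.2%) overlapped another entry of the list, against 50 of 1355 (3.69%) of the rest. The weaker entry of each of the 11 pairs in the arm was in the lowest 5% of the list, as was that of 22 of the 25 pairs elsewhere. The stronger entries had a median percentile of 5.56 in the arm, against 54.6 elsewhere. With such entries merged, 144 peaks remained in the arm and their median percentile was 31.2.

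Along the arm the ranks were uneven. In blocks of 10 Mb the Calu-3 KLF5 peaks had median percentiles of 32.9 (36 peaks, 150 to 160 Mb), 12.3 (22 peaks, 160 to 170 Mb), 22.4 (29 peaks, 170 to 180 Mb), 27.1 (39 peaks, 180 to 190 Mb) and 76.1 (29 peaks, 190 Mb to the end). Of the 29 peaks of the last block, 18 lay in 1 bin, from 193 to 194 Mb. The median of that block without this bin was not computed. Over the whole arm, the 137 peaks outside the bin had a median percentile of 23.6.

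That bin held the highest KLF5 peak of the Calu-3 list and several near it in rank. It was the richest of all 3083 bins in the genome, with 18 peaks against 16 in the next. The 18 peaks spread over 427 kb, from 193432379 to 193859526, and had a median percentile of 92.0. Of the 17 peaks of the distal arm in the highest 10% of the list, 10 were among these 18, and 6 of the 18 were among the 30 highest of the list.

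The highest peak of the list lay at 193852569 to 193852984 with a signal of 240. The second highest of the arm, at 193853697 to 193853880, had 176 and was the only one of the 18 that overlapped a 16HBE14o- peak. A pair at 193720896 to 193721175 and 193721528 to 193721597 had signals of 104 and 101, and a single peak at 193788901 to 193789180 had 81.9. Farther back in the stretch were peaks at 193590119 to 193590398 (72.3), 193603667 to 193603946 (49.4) and 193587568 to 193587847 (47.2). Weak peaks stood among them, the lowest at 193830417 to 193830696 with a signal of 22.2 and percentile 23.5. The 10 peaks above percentile 90 ran from 193587568 to 193859526, so they did not reach over the whole 427 kb. They lay at several places in that span and were not drawn from 1 site.

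A tighter group of 6 peaks covered 7.30 kb, from 193852227 to 193859526. In order of position their signals were 57.8, 240, 176, 39.0, 26.2 and 62.5. Nearly all Calu-3 KLF5 peaks were 280 bp wide. The distal arm had 5 peaks of another width, all at percentile 96.1 or above, and the rest of the list had 6, all at percentile 98.7 or above.

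The other lists had mostly low ranks in the same stretch. The 16HBE14o- KLF5 list had 2 peaks there, at 193546321 to 193546664 (signal 20.4, percentile 12.1) and at 193853706 to 193854049 (signal 26.5, percentile 30.2). CEBPB had 23 peaks with signals of 1.91 to 11.5 and a median percentile of 34.9, of which 3 were above percentile 90. CEBPB peaks overlapped 5 of the 18 KLF5 peaks. At the highest KLF5 peak the CEBPB peak had a signal of 3.12, at percentile 42.6, whereas the KLF5 peak at 193721528 met the strongest CEBPB peak of the stretch, at percentile 97.9 and with summits 2 bp apart.

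**Figure D3:**
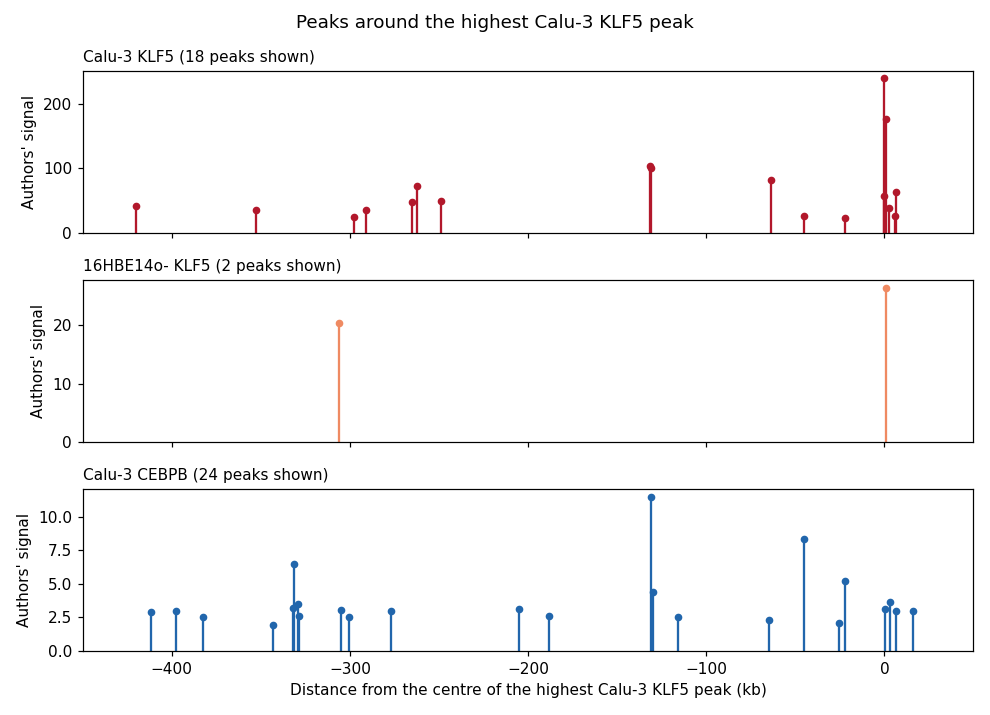
Signal of each peak, in the authors' units, against the distance in kb from the centre of the highest Calu-3 KLF5 peak, for Calu-3 KLF5, 16HBE14o- KLF5 and Calu-3 CEBPB from top to bottom, each on its own scale. Calu-3 KLF5 reached 240, 16HBE14o- KLF5 had 2 peaks up to 26.5, and CEBPB peaks reached 11.5 away from the highest KLF5 peak.

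Outside that bin, 7 of 137 Calu-3 KLF5 peaks were above percentile 90. The highest lay at 161033787 to 161034066 (signal 66.5, percentile 97.6), at 156848226 to 156848505 (65.1, percentile 97.5) and at 156534807 to 156535086 (56.5, percentile 95.7). Groups of at least 3 entries with gaps of 10 kb or less were seen at 2 other places, and both held overlapping entries. At 184315650 to 184320655 there were 4 peaks with signals of 6.89 to 37.5, including the lowest peak of the whole list, and no CEBPB peak lay between them. Merging left 3 peaks there. At 194033217 to 194040928 there were 3 entries with signals of 14.9 to 27.0, and merging left 2, fewer than the 3 that made a group.

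The 26 16HBE14o- KLF5 peaks of the distal arm had a median percentile of 35.8 (median interval 26.9 to 72.3), against 50.05 (48.3 to 51.8) over the rest of the list, and 4 of 26 (15.4%) were in the lowest 25%. Of these peaks 22 of 26 (84.6%) passed a q-value of 0.05, against 2553 of 3236 (78.9%) of the rest and 78.9% of the whole list. The highest was at 197216860 to 197217203 (signal 63.3, percentile 96.4), near the end of the arm, and neither Calu-3 list had a peak over it. The next 4 lay at 189662272 to 189662615 (48.7), 188878315 to 188878658 (46.3), 152879776 to 152880119 (45.6) and 185216650 to 185216993 (45.4). Beyond 195.4 Mb, the step fitted to the 16HBE14o- counts themselves, lay 1 Calu-3 and 7 16HBE14o- KLF5 peaks. CEBPB peaks of Calu-3 overlapped 10 of the 26 (38.5%, 20.2 to 59.4), against 722 of 3236 of the rest (22.3%) and 22.4% of the whole list. That difference was 16.2 points, with a Newcombe interval of 0.0501 to 35.2. On the rest of chromosome 3 the overlap was 14 of 87 (16.1%, 9.09 to 25.5), an interval that overlaps that of the arm. The arm also had more CEBPB peaks, at 50.5 per Mb against 22.0 over the rest of the list. The CEBPB peaks at these 10 sites ranged from percentile 0.183 to 92.1 by signal.

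**Figure D4:**
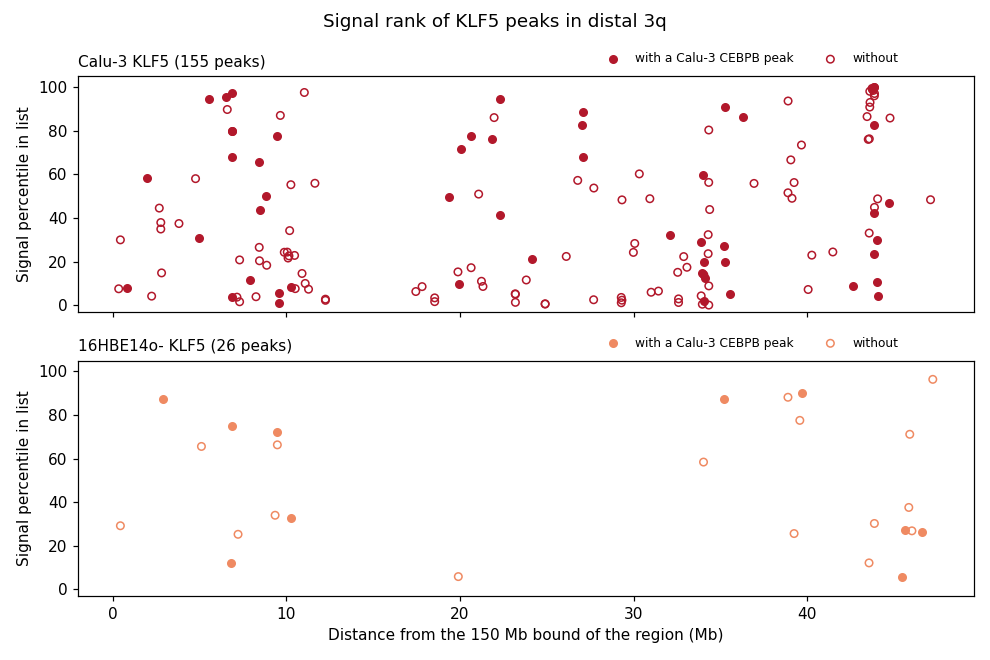
Signal percentile of each KLF5 peak of the distal arm against its distance in Mb from the 150 Mb bound, for the Calu-3 peaks (top) and the 26 16HBE14o- peaks (bottom). Filled points have an overlapping Calu-3 CEBPB peak and open points have none, and the Calu-3 peaks of high rank gather between 193 and 194 Mb.

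Few KLF5 sites of the distal arm were listed in both lines. Of the Calu-3 peaks of the arm 8 overlapped a 16HBE14o- peak (5.16%, 2.25 to 9.92), against 348 of 1355 of the rest (25.7%, 23.4 to 28.1) and 23.6% of the whole list. On the rest of chromosome 3 it was 10 of 88 (11.4%, 5.59 to 19.9), an interval that overlaps that of the arm. From the other side 8 of 26 16HBE14o- peaks (30.8%, 14.3 to 51.8) overlapped a Calu-3 peak, against 360 of 3236 of the rest (11.1%, 10.1 to 12.3) and 11.3% of the whole list. Both shares are tied to the unequal numbers by which the arm was chosen and are read no further.

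The 8 shared sites were not those of highest rank in both lists. The Calu-3 peak at 159481417 to 159481696 was at percentile 77.6, and its 16HBE14o- partner was at 72.3. The site at 156877927 to 156878206 had percentiles of 68.1 in Calu-3 and 75.02 in 16HBE14o-. At 188878404 to 188878683 they were 51.6 and 88.1, and at 185216677 to 185216956 they were 27.1 and 87.3, so both of these ranked higher in 16HBE14o-. The reverse was seen at 193853697 to 193853880, with 99.9 in Calu-3 and 30.2 in 16HBE14o-, and at 189231089 to 189231368, with 56.3 and 25.6. The remaining sites, at 150443403 to 150443682 and 160283146 to 160283425, had low ranks in both lists, with signals of 23.3 and 19.0 in Calu-3 and of 26.3 and 27.0 in 16HBE14o-. Summits of the 8 pairs were a median of 67.5 bp apart. CEBPB was also listed at 4 of them, at low percentiles by signal of 14.3, 6.94, 0.426 and 34.05 in order of position.

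CEBPB peaks in Calu-3 overlapped 51 Calu-3 KLF5 peaks of the arm (32.9%, 25.6 to 40.9), against 609 of 1355 of the rest (44.9%, 42.3 to 47.6) and 43.7% of the whole list. The difference was -12.0 points (Newcombe interval -19.4 to -3.87). On the rest of chromosome 3 CEBPB was found at 36 of 88 KLF5 peaks (40.9%, 30.5 to 51.9), an interval that overlaps that of the arm. The difference from the rest of the list varied with KLF5 signal. In the lower 50% of the list by signal CEBPB was found at 28 of 101 peaks of the arm (27.7%), against 283 of 654 of the rest (43.3%), a difference of -15.5 points (-24.2 to -5.41). In the upper 50% it was found at 23 of 54 peaks (42.6%), against 326 of 701 (46.5%), a difference of -3.91 points whose interval, -16.7 to 9.83, included 0. Against the rest of chromosome 3 the direction turned in the upper 50%, where CEBPB was found at 16 of 42 peaks (38.1%, 23.6 to 54.4). In the highest 25% it was found at 16 of 34 peaks of the arm (47.1%) and at 5 of 19 on the rest of the chromosome (26.3%, 9.15 to 51.2). Whether the differences of the upper and lower classes were unlike was not tested.

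Nearby CEBPB peaks gave another picture. A CEBPB summit lay within 1 kb of 66 KLF5 summits in the arm (42.6%), against 695 of 1355 elsewhere (51.3%). Within 10 kb it was 137 (88.4%, 82.3 to 93.0), against 1022 of 1355 (75.4%, 73.0 to 77.7), beside the denser CEBPB peaks of the arm. By blocks of 10 Mb, CEBPB overlapped 17 of 36, 3 of 22, 9 of 29, 12 of 39 and 10 of 29 KLF5 peaks, in order from 150 Mb to the end. The block from 160 to 170 Mb, with 13.6%, was thus the lowest, and also had the KLF5 peaks of lowest rank.

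Joint sites of the arm had lower CEBPB ranks by signal than joint sites elsewhere, and CEBPB peaks without KLF5 ranked lower in the arm too. The 48 CEBPB peaks with a Calu-3 KLF5 peak had a median percentile of 83.2, and 20 of them (41.7%) were in the highest 10% of the list, against a median of 96.7 and 406 of 603 (67.3%) elsewhere. CEBPB peaks without a Calu-3 KLF5 peak had a median percentile of 34.5 in the arm, against 47.7 elsewhere. Of these, 7.56% in the arm and 9.55% elsewhere were in the highest 10%. The share of CEBPB peaks with a KLF5 peak was 1.99% (1.47 to 2.63) in the arm, against 0.9004% (0.830 to 0.975) elsewhere and 0.938% in the whole list, beside a 7.28-fold higher KLF5 density. The joint sites of highest mean rank were at 193721528 to 193721597, at 156848226 to 156848505, at 172277889 to 172278168, at 185255300 to 185255579 and at 186307573 to 186307852. Their CEBPB percentiles were 97.9, 97.9, 98.4, 98.6 and 98.3 in that order. Summits were a median of 71 bp apart over the 52 pairs of the arm and 30 bp over all 662 pairs of the lists.

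The 5 strongest CEBPB peaks of the arm overlapped no KLF5 peak of either line. They lay at 189111481 to 189111790 (signal 30.3, percentile 99.97), at 151468987 to 151469297 (24.6), at 177167459 to 177167931 (23.8), at 189311413 to 189311689 (22.7) and at 187686728 to 187687044 (22.2). Each was above percentile 99.7 of the list. The summit of the first lay 653 bp from that of a Calu-3 KLF5 peak at 189110847 to 189111126 (percentile 49.1), so KLF5 was listed close by without overlap. Overlap was rare among strong CEBPB peaks in general. In the highest 25% by signal, 28 of 427 CEBPB peaks of the arm (6.56%) overlapped a Calu-3 KLF5 peak, against 468 of 16953 elsewhere (2.76%). A CEBPB peak of nearly the same rank, at 158846468 to 158846776 (signal 21.4), did overlap a Calu-3 KLF5 peak. Joint sites of high rank for both factors, such as those at 193721528 and 156848226, lay elsewhere in the arm.

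CEBPB peaks of the arm as a whole ranked low by signal, with a median percentile of 34.6 (14.3 and 64.0), against 47.7 (23.8 and 75.2) over the rest of the list. The order turned round with the measure used for ranking. By the authors' q-value the median percentile was 54.1 in the arm and 50.7 over the rest, and 1214 of 2416 peaks of the arm (50.2%) passed a q-value of 0.05, against 30888 of 66970 (46.1%) and 46.3% of the whole list. By signal, the density of the lowest 25% was 3.34 times and that of the highest 25% 1.604 times the density over the rest of the list. Ranked by q-value, these ratios were 2.22 and 2.73. For Calu-3 KLF5 both rankings gave a median percentile of 29.1.

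At like q-values, CEBPB signals in the arm were lower. Among peaks with a −log10 q-value from 1 to 2, the median signal was 3.08 for 623 peaks of the arm (quartiles 2.91 and 3.22), against 3.44 for 16105 peaks of the rest (3.22 and 3.57). From 2 to 5 it was 3.62 against 3.97, and from 5 to 10 it was 4.50 against 5.48. Above 10 the medians were 8.35 and 8.97.

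Many CEBPB peaks of the list share 1 exact signal value with others, and the arm stood apart in this too. In all, 82 values were each shared by 100 or more peaks, and 59.2% of the list had 1 of them. In the distal arm 571 of 2416 peaks did (23.6%, 22.0 to 25.4), against 40536 of 66970 of the rest (60.5%, 60.2 to 60.9). The commonest value, 3.17476, was given to 4384 peaks of the list and to 0 of 2416 in the arm, which allows a share of up to 0.124% by the limit of 3 counts (exact upper bound 0.153%). The last peak of chromosome 3 with that value lay at 137377709 to 137377845.

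The signal values also changed along the rest of the chromosome. A single split of blocks of 3 Mb along the chromosome, placed by least squares, fell at 123 Mb. Recurring values made up 41.9% to 93.1% of the peaks in 40 blocks up to 123 Mb, 16.0% to 45.9% in the 9 blocks from 123 to 150 Mb, and 10.96% to 44.3% in the 16 blocks beyond 150 Mb. The block from 123 to 126 Mb, with 45.9%, was above every block of the arm, and the next 8 lay between 16.0% and 36.3%. The median signal at a −log10 q-value from 1 to 2 was 3.49, 3.13 and 3.08 over the peaks of these stretches in the same order. CEBPB density was 32.8 per Mb up to 123 Mb, 37.3 from 123 to 150 Mb and 50.5 beyond 150 Mb. Signal values like those of the distal arm were therefore met in every block from 126 Mb on. Before that, the block from 48 to 51 Mb also had a share of recurring values, 41.9%, within the range of the arm. CEBPB density did not follow the same course, with 42.6 peaks per Mb from 130 to 140 Mb, 34.1 from 140 to 150 Mb and 39.8 from 190 Mb to the end.

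**Figure D5:**
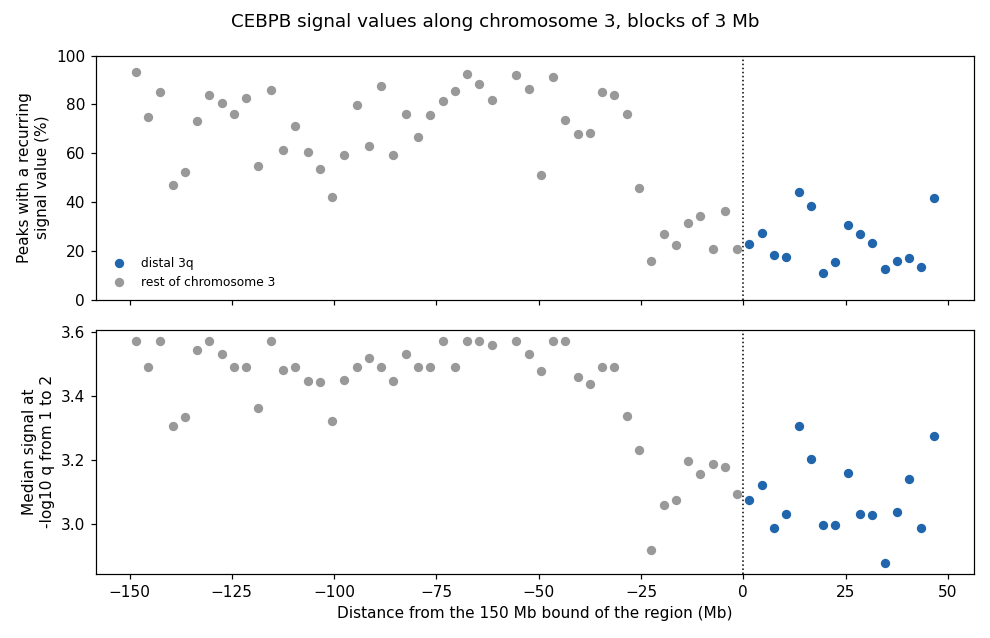
Share of CEBPB peaks with a signal value shared by 100 or more peaks of the list, in percent (top), and median CEBPB signal of peaks with a −log10 q-value from 1 to 2, in the authors' units (bottom), in blocks of 3 Mb along chromosome 3 against the distance from the 150 Mb bound. Blue points are the distal arm and grey points the rest of the chromosome, and the shares in the 8 blocks between 126 and 150 Mb, at 16.0% to 36.3%, lie within the range of the distal arm.

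A pair of other chromosome arms served for comparison. On chromosome 20 beyond 25 Mb, Calu-3 KLF5 stood at 2.43 peaks per Mb and CEBPB at 35.8, whereas 16HBE14o- KLF5 was dense, at 11.7. The Calu-3 KLF5 peaks had a median percentile of 55.4 there, against 29.1 in the distal arm of chromosome 3. Recurring CEBPB values made up 27.7% of peaks there (25.3 to 30.2), and the median signal at a −log10 q-value from 1 to 2 was 3.12. On chromosome 5 up to 46 Mb, CEBPB was also dense, at 36.2 peaks per Mb, but Calu-3 KLF5 was not, with 8 peaks at 0.174 per Mb. Recurring values made up 71.9% there (69.7 to 74.1) and the median signal was 3.49. CEBPB densities above the 22.0 per Mb of the rest of the list were thus met with low signal values in the distal arm and on chromosome 20. They were met without them on the short arm of chromosome 5 and on chromosome 3 up to 123 Mb. The latter had 32.8 peaks per Mb, 72.0% recurring values and a median signal of 3.49. The densities themselves were unlike, with 50.5 per Mb in the distal arm.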

How the data were processed

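The authors deposited 1 peak list per group, named as IDR peaks on hg19 per the file headers, where IDR is the irreproducible discovery rate. Each list came from both samples, per the series' design text. Aligner, peak caller, filters and control library are not given in the sources used here. Per peak, the deposited values used were position, the authors' signal, whose normalization is not stated, and the −log10 q-value. The deposited score, and the −log10 p-value of the CEBPB list, were not used in any result.

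Peaks were assigned by midpoint, and overlap meant at least 1 bp. Intervals are exact (Clopper-Pearson), or Newcombe for differences. Steps of density were placed by Poisson maximum likelihood, with bounds 1.92 log-likelihood units below the best, and the method was tested on simulated arms. The members, lists and tests were chosen with earlier results of these data known. The text names the 5 highest peaks per list, the shared KLF5 sites, the 5 densest bins per Calu-3 list, groups of at least 3 KLF5 peaks and the peaks beside the bound. Peaks of high rank outside the densest bin, joint sites, stretches without peaks, blocks, q-value bands and recurring values were chosen after the values were seen. RefSeq GRCh38.p14 gave gene names and order alone. Sequences, motifs and genes of peaks were not analysed here. Python 3.11.15, numpy 2.4.6, pandas 2.3.3, scipy 1.17.1 and matplotlib 3.10.9 were used.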

Additional observations from a re-analysis of the deposited data

How the results depend on the processing

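Of 55 alternative values, 38 lay within the counting interval of the reported value and 17 did not. The share of the Calu-3 KLF5 list in the distal arm was 7.15% among peaks above the median signal of their list and 8.18% at q-values of 0.05 or less. For CEBPB it was 2.78% and 3.78% under these settings, and 3.14% with the bound moved 5 Mb farther on. CEBPB overlap of the KLF5 peaks was 20% with 50% of both peaks shared, 21.9% with summits within 100 bp and 5.81% with all lists cut to 1510 peaks. KLF5 overlap of the CEBPB peaks was 1.28%, 1.41% and 17.0% in the same order and 2.72% at q-values of 0.05 or less. The difference in CEBPB overlap from the rest of the list was -17.6 points with 50% shared and -17.0 points by summits. The CEBPB step moved to 154 Mb with 3 steps, and the density ratio across it was 1.70 at q-values of 0.05 or less, against 1.56 as reported. Ranked by q-value, the CEBPB median percentile was 54.1, and the density ratios of the lowest and highest 25% were 2.22 and 2.73. The cut to 1510 peaks left the Calu-3 KLF5 list whole and kept the peaks of highest signal of the other lists. The cause of these changes was not tested. The Calu-3 KLF5 step stayed between 148.8 and 149 Mb under 4 alternatives chosen after seeing the data, as were the alternatives on density ratios and on leaving out the densest bin. No paired analysis was possible because each group has 1 list made from both replicates. Leaving out a replicate could not be done for the same reason. Unknown depth limits every statement on a peak that is missing from a list.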
